A study of Mus musculus with 4 samples.

Results

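BCL6 peaks in LINE elements are the called BCL6 binding sites whose position the authors' annotation places inside a long interspersed nuclear element. A peak was taken if its detailed annotation had the form name, class and family with the class LINE, and if it lay more than 1000 bp from the nearest annotated promoter. This gave 383 of 5741 peaks, of which 116 were among the 1785 peaks of the inguinal list and 267 among the 3956 peaks of the perigonadal list. No LINE annotation lay within 1 kb of a promoter in either list, so the distance limit removed no peak. The nearest LINE peaks beyond it were a perigonadal peak 1069 bp from the promoter of Leo1 and an inguinal peak 1236 bp from that of Atp5g1.

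LINE elements are retrotransposons that copy themselves through an RNA intermediate. The L1 family is the one still active in mice. L1Md and L1_Mus copies are the youngest, Lx and L1_Mur copies spread in the rodent lineage, and the L1M series dates from early mammals. L2, CR1 (named L3 here) and RTE elements are older families that no longer move. BCL6 is a zinc finger repressor that recruits corepressor complexes. Its DNA motif resembles that of the STAT factors, and in fat and liver it is known to oppose STAT5 at growth hormone responsive genes.

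The chromatin came from C57BL/6 mice carrying Adipoq-Cre and a Cre-dependent Sun1-sfGFP-myc nuclear tag, so that nuclei of adipocytes could be pulled out of inguinal (subcutaneous) or perigonadal (visceral) fat with beads against myc. All groups shared this genotype and crosslinking in disuccinimidyl glutarate for 30 minutes and 1% formaldehyde for 10 minutes. Each of the 2 depots had 1 library precipitated with a custom guinea pig antibody against mouse Bcl6 and 1 input library without antibody, which was not analysed here. The sources used here do not give age, sex or the number of mice. Peak lists hold no expression, so the labelled cell type could not be checked against marker levels.

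The score of a peak and its focus ratio are the authors' values. Scores were whole multiples of 0.752 for inguinal peaks and of 0.882 for perigonadal peaks, and each multiple was read as 1 sequenced tag. Library totals are not given in the files, which leaves the depth unknown. With 1 library a depot, no comparison below has a test, and peaks of 1 library are not replicates of a condition. Intervals are Wilson 95% intervals for shares and exact Poisson 95% intervals for scores. They cover counting error only.

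Sequence could be read for 1 of the 383 peaks, a perigonadal peak in an L3b element of the CR1 family that overlaps the RefSeq promoter window of the non-coding gene Gm34907. It is shown because it is the sole LINE peak whose bases the reference tables hold, and it was not chosen by height: its score was 9.70, or 11 tags, and it had no inguinal partner. The 169 bases of the overlap lie at chr14:103463805-103463973 (GRCm38.p6, plus strand, 5′ to 3′). The peak is intergenic, 49.4 kb upstream of the promoter of Scel, the gene the authors assigned. Capitals mark each match to TTCNNNGAA, the palindrome that STAT factors bind.

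L3b peak at Gm34907: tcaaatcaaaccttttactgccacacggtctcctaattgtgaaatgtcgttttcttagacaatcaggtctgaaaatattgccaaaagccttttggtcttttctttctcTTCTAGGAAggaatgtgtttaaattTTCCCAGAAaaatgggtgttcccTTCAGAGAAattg

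The stretch holds 3 such matches, starting at bases 109, 134 and 157 counted from its 5′ end. Their centres are 20, 45 and 68 bp from the peak centre. The first 2 also match TTCCNNGAA on one strand or the other, a closer form of the BCL6 motif, so the motifs overlap. Searched on both strands, TTCNNNGAA occurred in the same 169-base part of 4.46% of 32851 RefSeq promoter windows and TTCCNNGAA in 2.65%. A match of letters describes the window and does not show a bound site.

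LINE elements held 6.50% of the inguinal peaks (interval 5.45 to 7.74%) and 6.75% of the perigonadal peaks (6.01 to 7.57%). LTR retroelements held 7.39% and 8.19%, and SINE elements 4.82% and 7.33%. The share of the genome that lies in LINE elements was not computed here, and whether peaks gather in or avoid them cannot be read from these values. Among peaks of more than 12 tags, the LINE share was 4.88% for inguinal and 3.16% for perigonadal peaks. Among those of up to 12 tags it was 7.64% and 7.88%.

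Of the 116 inguinal LINE peaks 88.8% belonged to the L1 family, as did 239 of the 267 perigonadal ones, 89.5%. L2 elements held 8 and 21 peaks, CR1 elements 4 and 6, and an L4_A_Mam element of the RTE-X family 1 in each list. By name, 55 different elements were seen under inguinal and 79 under perigonadal peaks, with 44 common to both. Of these names, 28 and 33 occurred once.

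Within L1 the make-up of the lists differed by element age. Older mammalian L1 elements held 44.8% of inguinal LINE peaks (36.1 to 53.9%) and 28.8% of perigonadal ones (23.7 to 34.5%). For rodent L1 elements the shares were 37.1% (28.8 to 46.1%) and 52.1% (46.1 to 58.0%). Young mouse L1 elements held 8 inguinal peaks, all in L1_Mus copies, and 23 perigonadal peaks, 4 of them in L1Md_F copies. The peak file named in the inguinal header carries a false discovery rate of 0.001 in its name and the perigonadal one no limit, so depot, library and calling limit cannot be told apart here.

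Single names led each list. L1M5, an older mammalian L1, was the most frequent element under inguinal peaks with 10 peaks, followed by Lx8 with 5. In the perigonadal list Lx7 came first with 20 peaks, then Lx8 with 17, and Lx9 and L1_Mus3 with 11 each, while L1M5 held 8. L1M5 also had the most peaks with a partner in the other list. Of its peaks, 6 of 10 inguinal and 7 of 8 perigonadal ones overlapped a peak of the other list. No peak in Lx7, Lx8, Lx9 or L1_Mus3 did in either list. For the 20 perigonadal Lx7 peaks, a count of 0 allows a share of up to 15.0% by a limit of 3 counts, and for the 17 in Lx8 up to 17.6%. More than 12 tags were reached by 2 perigonadal Lx7 peaks and by none in Lx8, Lx9 or L1_Mus3. For L1M5, 8 of 10 and 7 of 8 peaks did so. Of all peaks of that height, 59.1% of inguinal and 43.6% of perigonadal ones had a partner. The L1M5 counts rest on 10 and 8 peaks, and their sharing is not shown to be particular to that name. Outside repeats, 7.71% of inguinal and 3.64% of perigonadal peaks of up to 12 tags had a partner. At such shares, a count of 0 shows nothing particular to any of these names.

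**Figure D1:**
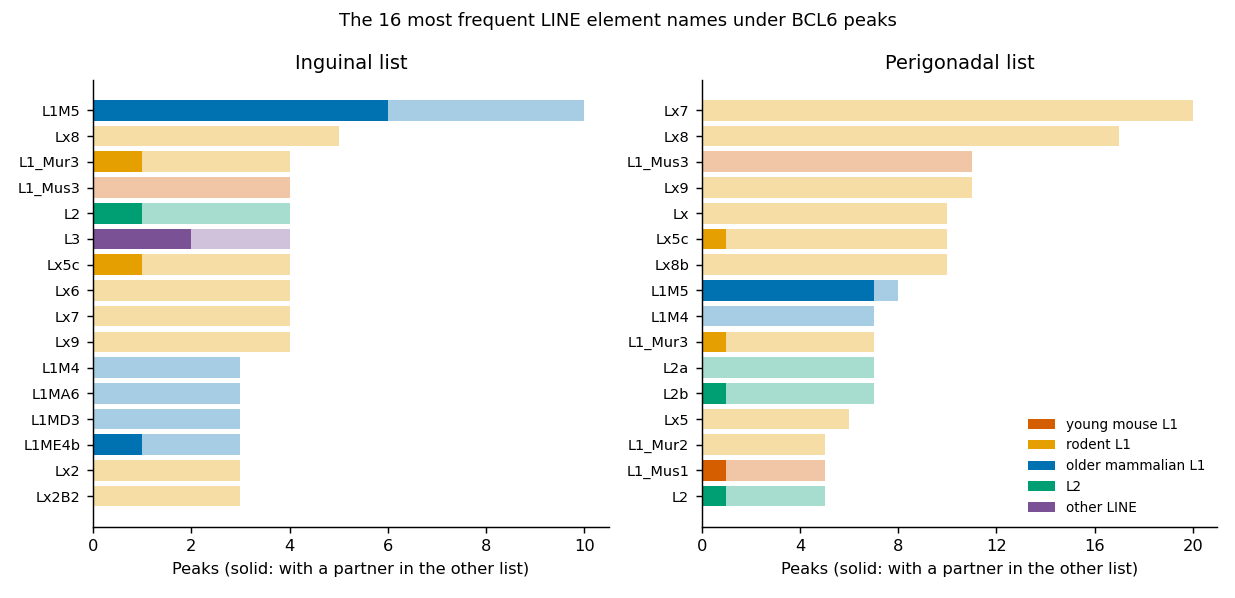
Number of BCL6 peaks (horizontal axis) in each of the 16 most frequent LINE elements of the inguinal (left) and perigonadal (right) list, coloured by element group, with ties in alphabetical order. The solid part of a bar counts peaks with an overlapping peak in the other list: 6 of 10 for inguinal L1M5 and 7 of 8 for perigonadal L1M5, and 0 of 20 for perigonadal Lx7.

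Most LINE peaks were low. Inguinal LINE scores had a median of 8.27, or 11 tags, and reached 54.2. Perigonadal ones had a median of 8.82, or 10 tags, and reached 63.5. The medians over all peaks were 9.03 and 8.82. Above 12 tags stood 36 of 116 inguinal LINE peaks, 31.0% against 41.3% of all inguinal peaks, and 30 of 267 perigonadal ones, 11.2% against 24% of all. For LTR peaks the shares were 23.5% and 13.6%, and for SINE peaks 15.1% and 8.97%, so low height was not particular to LINE peaks.

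The tall LINE peaks lay mainly in older elements. Of 52 inguinal peaks in older mammalian L1, 24 had more than 12 tags, as had 16 of 77 perigonadal ones. For rodent L1 the counts were 4 of 43 and 6 of 139, for young mouse L1 2 of 8 and 2 of 23, and for L2 4 of 8 and 4 of 21. The remaining families had 2 of 5 and 2 of 7. Medians hardly separated the groups, at 8.27 to 10.5 in the inguinal and 8.82 in each perigonadal group. The difference lay in the upper tail.

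**Figure D2:**
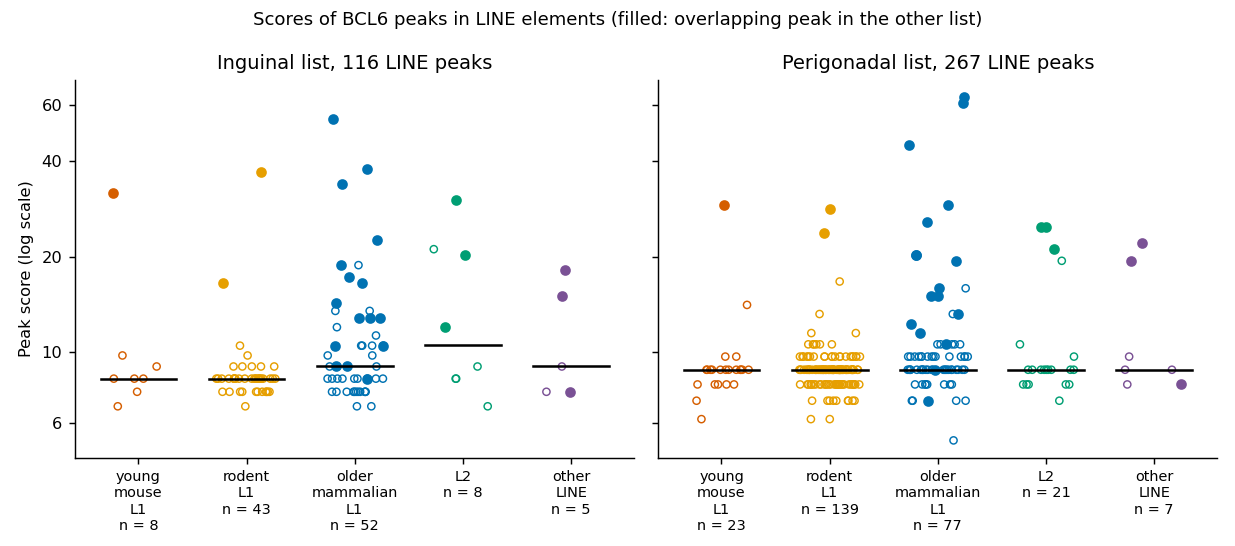
Peak score (log scale) of every LINE peak by element group, for 116 inguinal peaks (left) and 267 perigonadal peaks (right). Each circle is 1 peak, filled where the other list has an overlapping peak, and the line is the group's median. The tallest points, 54.2 and 63.5, are in older mammalian L1, and most open circles lie near 8 to 10.

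The next question was which LINE sites were called in both depots. A partner, meaning a peak of the other list overlapping by at least 1 bp, existed for 25 of 116 inguinal LINE peaks, 21.6% (15.0 to 29.9%), where 28.5% of all inguinal peaks had one. It existed for 26 of 267 perigonadal LINE peaks, 9.74% (6.73 to 13.9%), where 12.8% of all perigonadal peaks had one. The other repeat classes had lower shares, 13.6% and 6.79% for LTR peaks and 5.81% and 2.76% for SINE peaks. With the perigonadal list held to the length of the inguinal one by score, the share of perigonadal LINE peaks was 27.7% (23 of 83), so the order of the depots depends on list length. LINE elements thus contributed 27 pairs. In 24 pairs both peaks carried a LINE annotation, with the same element name each time. In the other 3 pairs the annotation of 1 of the peaks named no LINE element. Centres lay 1.00 to 90.0 bp apart with a median of 34.0 bp, and the overlap had a median of 159.0 bp.

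The tallest pair lay in an L1M5 element 1.24 kb upstream of Atp5g1, which encodes subunit c of ATP synthase (chr11:96076829-96077031). Its score was 54.2 in the inguinal list (42.4 to 68.2), where it ranked 10 among all peaks. In the perigonadal list it was 60.8 (47.3 to 77.0), at rank 15. Another L1M5 element 35.2 kb upstream of Ptpn4, a gene for a non-receptor tyrosine phosphatase, had scores of 37.6 (27.9 to 49.6) and 63.5 (49.7 to 79.9) (chr1:119872140-119872342). The latter was the tallest LINE peak of the perigonadal list, at rank 13. Neither gene had a second peak within 50 kb in either list. Scores are scaled within a list and give no direction between depots.

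L1M5 also held the pair in intron 1 of 4 of Rab7b, a small GTPase gene of endosomal transport, with scores of 33.8 and 25.6 (chr1:131696331-131696533). A further L1M5 pair lay in intron 2 of 7 of Usp29, a deubiquitinase gene, with 23.3 and 20.3. The inguinal peak of this pair was annotated to the intron and the perigonadal one to the element, and the nearest promoter, at 19.3 kb, was that of Mir3099. In total 7 of the 27 pairs were in L1M5, more than in any other name. The other 3 had scores of 17.3 and 15.9 at 59.8 kb from Mtss1, 10.5 and 15.0 at 3.91 kb upstream of Tcf7l1, and 10.5 and 15.0 in intron 2 of 19 of Cul4a. Mtss1 encodes an actin-binding protein, Tcf7l1 a Wnt pathway repressor and Cul4a a ubiquitin ligase scaffold.

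Younger elements gave 3 pairs, all tall. The pair in an L1_Mus1 copy 125.3 kb from the non-coding gene 4930517M08Rik scored 31.6 (22.8 to 42.7) and 29.1 (20 to 40.9) (chr17:4509542-4509744). A pair in an L1_Mur3 copy lay 453.9 kb from Csmd3, a gene for a large membrane protein, with 36.9 and 23.8 (chr15:49245813-49246015). The Lx5c copy in intron 1 of 7 of Adipor2, which encodes a receptor for the fat hormone adiponectin, held peaks of 16.5 (10.4 to 25.1) and 28.2 (19.3 to 39.8) (chr6:119399389-119399591). Adipor2 had no other peak within 50 kb in either list. These 3 were the only pairs among 51 inguinal and 162 perigonadal peaks in young mouse and rodent L1.

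The tallest 12 pairs also included sites in L2, RTE-X and other older L1 elements, 31.7 to 602.1 kb from the nearest promoter. The L2c element at chr11:7815881-7816083, with 30.1 and 21.2, lay 602.1 kb from Igfbp3, a carrier of IGF and the nearest annotated gene. The L1ME4b element 80.9 kb from Zfp706, a zinc finger gene, scored 22.6 (15.2 to 32.2) and 45.0 (33.5 to 59.1). An L2b element 288.0 kb from Ostf1 scored 20.3 and 24.7. The L1MB5 element with 18.8 and 20.3 lay in intron 1 of 14 of Kcnq3, a potassium channel gene, though the nearest promoter belonged to Hhla1. The pair in the L4_A_Mam element scored 18.1 and 19.4, at 31.7 kb from the non-coding gene 1700092K14Rik.

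The other pairs, beyond the tallest 12 and the L1M5 sites above, had inguinal scores from 7.52 to 16.5 and perigonadal scores from 7.05 to 29.1. Their scores are given as inguinal, then perigonadal. Cemip2, a hyaluronidase gene, was 112.1 kb from an L1MCa pair with an inguinal score of 8.27 (4.13 to 14.8) and a perigonadal score of 29.1 (20 to 40.9). An L3 element in intron 3 of Slc1a3, a glutamate transporter gene, scored 7.52 (3.61 to 13.8) and 22.0 (14.3 to 32.5). An L2 element 6.74 kb upstream of Ksr1, a scaffold gene of the MAP kinase cascade, scored 12 (6.88 to 19.5) and 24.7 (16.4 to 35.7). The L1M3 element in intron 1 of 9 of Fkbp9, a peptidyl-prolyl isomerase gene, scored 16.5 (10.4 to 25.1) and 8.82 (4.23 to 16.2).

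An L3 element in intron 5 of 15 of Mtmr12, a gene of the myotubularin family, scored 15.0 and 25.6, and the perigonadal peak there was annotated to the intron. An L1ME2z element 10.9 kb from Rln1, the relaxin gene, scored 14.3 and 13.2. An L1ME4c element in intron 3 of 12 of Smoc1, a matrix protein gene, scored 12.8 and 19.4. Peaks of 12.8 and 12.3 lay in L1ME3G at 215.5 kb from Amigo2. The L1MB2 pairs, 158.8 kb from Clvs1 and in the non-coding gene 6030469F06Rik, scored 12.8 and 10.6, and 9.03 and 11.5. The lowest pairs lay 39.3 kb from Phldb2 in L1MA8, with 9.03 and 7.05, and in an L3 element in intron 4 of 8 of Usp46, another deubiquitinase gene, with 7.52 and 7.93.

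Across these 27 pairs the scores had a Pearson r of 0.658 on the log2 scale and a Spearman rho of 0.578. Both describe the sites, which share their 2 libraries and are not replicates. In 20 of the 27 pairs both peaks had more than 12 tags.

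**Figure D3:**
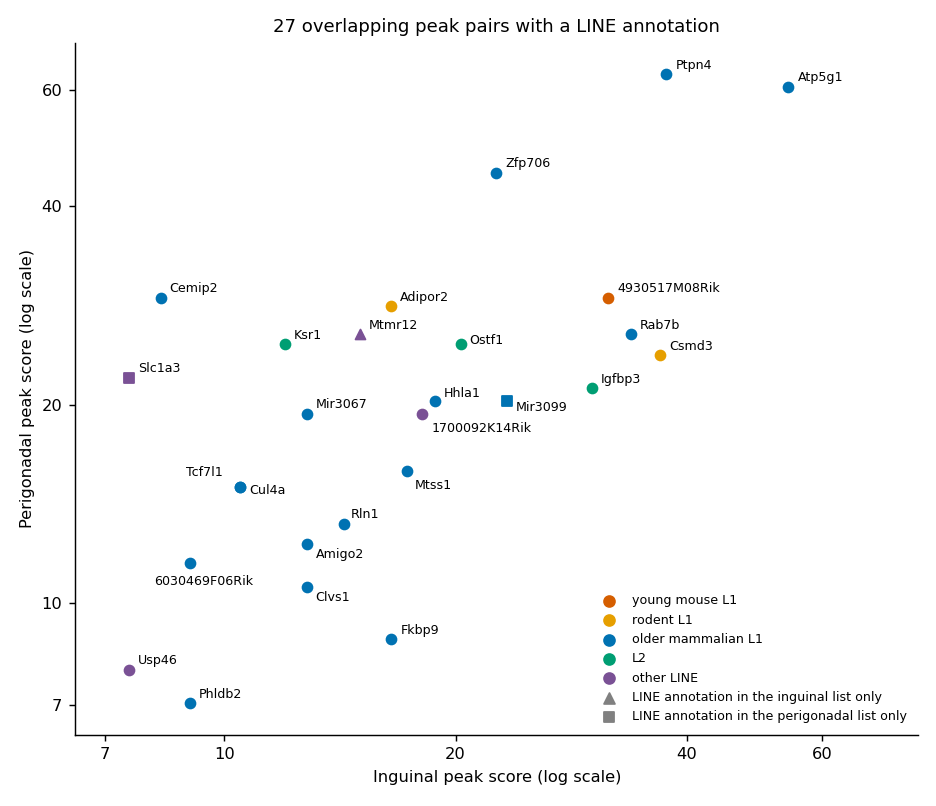
Inguinal score (horizontal, log scale) against perigonadal score (vertical, log scale) of the 27 overlapping pairs with a LINE annotation, named by the nearest gene and coloured by element group. Squares and triangles mark pairs annotated as LINE in a single list. Atp5g1 and Ptpn4 are at the upper right, and Cemip2 and Slc1a3 lie at the left above the other low inguinal scores, at 29.1 and 22.0 on the perigonadal axis.

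Sharing followed height in LINE peaks. Above 30 tags, 6 of 6 inguinal and 6 of 6 perigonadal LINE peaks had a partner. At 13 to 30 tags the counts were 15 of 30 and 16 of 24, and at up to 12 tags 4 of 80 and 4 of 237. Among LINE peaks of more than 12 tags, 58.3% of inguinal ones were shared (42.2 to 72.9%), beside 59.1% of all inguinal peaks of that height. For perigonadal LINE peaks the share was 73.3% (55.6 to 85.8%), beside 43.6% of all perigonadal peaks of that height. LTR peaks of more than 12 tags were shared for 41.9% and 31.8%, and SINE peaks for 15.4% and 19.2%. No test of these differences between classes was possible over samples.

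Taken over all heights, element groups differed in sharing as they did in height. The groups were joined after their values were seen. In older L1, L2 and the remaining families, 22 of 65 inguinal peaks, 33.8% (23.5 to 46.0%), and 23 of 105 perigonadal peaks, 21.9% (15.1 to 30.7%), had a partner. In young mouse and rodent L1 the counts were 3 of 51, 5.88% (2.02 to 15.9%), and 3 of 162, 1.85% (0.632 to 5.30%). Among peaks of up to 12 tags, 0 of 45 inguinal and 0 of 154 perigonadal peaks in young mouse and rodent L1 were shared, which by a limit of 3 counts allows shares of up to 6.67% and 1.95%. The Wilson upper bounds are 7.87% and 2.43%. In the older elements of that height 4 of 35 and 4 of 83 were. Outside repeats, 7.71% and 3.64% of peaks of up to 12 tags had a partner. At 13 to 30 tags, 1 of 4 inguinal and 1 of 6 perigonadal peaks in young mouse and rodent L1 were shared. In the older elements 14 of 26 and 15 of 18 were. Above 30 tags every LINE peak of both groups was shared. Few peaks in young mouse and rodent L1 were tall, so the shares over all heights do not separate element group from height.

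**Figure D4:**
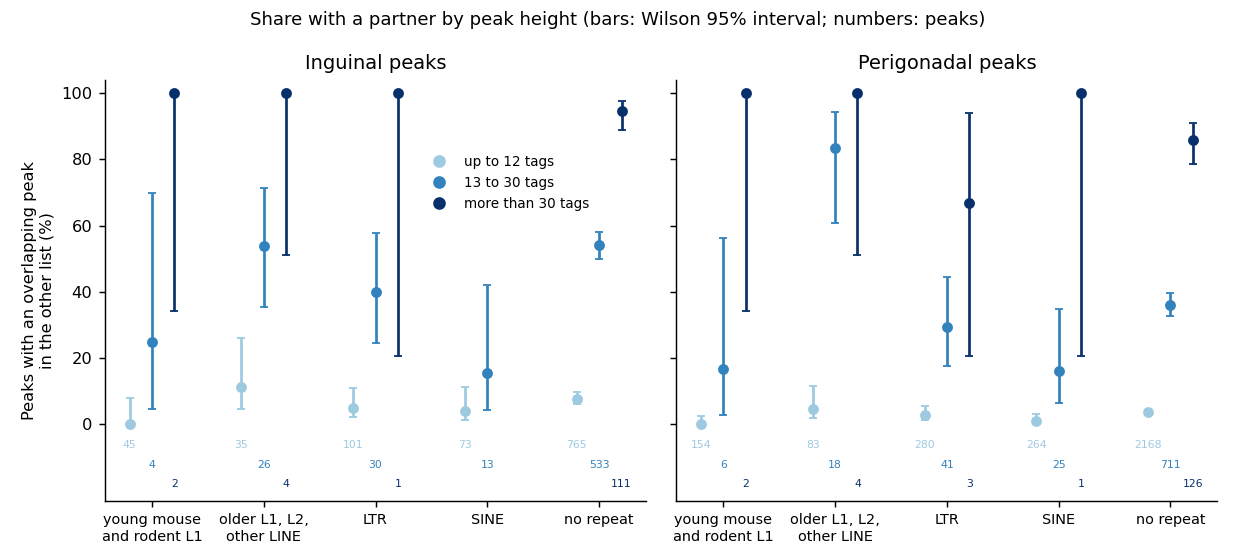
Percentage of peaks with an overlapping peak in the other list (vertical axis) by element group or repeat class, for inguinal peaks (left) and perigonadal peaks (right). Colours give 3 height classes, bars are Wilson 95% intervals and the numbers along the bottom count the peaks. Low peaks in young mouse and rodent L1 sit at 0 of 45 and 0 of 154. At 13 to 30 tags, older LINE elements sit at 53.8% of 26 inguinal peaks (35.5 to 71.2%) and 83.3% of 18 perigonadal peaks (60.8 to 94.2%). Peaks outside repeats of that height sit at 54.0% and 36.1%.

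Reads from a repeated element can match several copies of it. The sources used here do not say how such reads were handled, and the part this plays in the low number of tall peaks in young copies was not tested. 

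LINE peaks without a partner numbered 91 inguinal and 241 perigonadal ones. Of these, 15 and 8 had more than 12 tags. The tallest inguinal one, with 21.1 (14 to 30.4), lay in an L2c element in intron 9 of 15 of Camkk1, a kinase gene of calcium signalling (chr11:73031625-73031827). The next, with 18.8, lay in an L1MD element 814.7 kb from Gm2516. Lpin2, which encodes a phosphatidate phosphatase of lipid synthesis, had a peak of 12 in an L1MD3 element in intron 2 of 19. Of the 15 inguinal peaks, 11 lay in older mammalian L1.

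In the perigonadal list the tallest LINE peak without a partner scored 19.4 (12.2 to 29.4). It lay in an L2b element 5.62 kb upstream of Igf2bp2, an mRNA-binding protein gene (chr16:22168824-22169008). An Lx7 element in intron 5 of 9 of Lrrc28 followed with 16.7, an L1M4 element 56.9 kb from Stx18 with 15.9, and an L1Md_F2 copy 1568 kb from Olfm4 with 14.1. The peak 2.50 kb upstream of Tph2, a serotonin synthesis gene, scored 13.2 in another Lx7 copy. Within 10 kb, a called peak of the other list lay near 2 inguinal and 3 perigonadal unshared LINE peaks. The nearest peak of the other list was 3.48 kb or more from every inguinal and 4.98 kb or more from every perigonadal unshared LINE peak, with medians of 231.0 and 685.3 kb. Absence from a list shows that nothing was called there and is no measure of BCL6 occupancy. Signal below the calling limit cannot be seen in these lists, and the same distances are not given here for other unshared peaks.

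The focus ratio, a fraction that is higher where tags lie more tightly around the peak centre, ran from 0.556 to 0.95 in inguinal and from 0.6 to 0.972 in perigonadal LINE peaks. Its median was 0.839 in inguinal LINE peaks, 0.800 in LTR, 0.786 in SINE and 0.812 in peaks outside repeats. In the perigonadal list the medians were 0.846, 0.833, 0.833 and 0.833. Shared LINE peaks had medians of 0.875 and 0.863, and unshared ones 0.816 and 0.833. The quartiles of LINE peaks, 0.786 to 0.893 and 0.786 to 0.909, overlapped widely with those of the other classes. At up to 12 tags, inguinal LINE peaks had a median of 0.846 and peaks outside repeats 0.800. In the perigonadal list both medians at that height were 0.833. The highest ratio of all LINE peaks, 0.972, belonged to the perigonadal L1_Mus1 peak of the pair near 4930517M08Rik.

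By position, 73 inguinal LINE peaks were intergenic and 43 intronic. In the perigonadal list 164 were intergenic and the rest intronic. The intergenic shares were 62.9% and 61.4%, beside 45.7% and 44.7% of the intronic and intergenic peaks outside repeats. LTR peaks had similar shares, 60.6% and 63.9%, and SINE peaks lower ones, 41.9% and 42.1%. First introns held 17 of the 43 inguinal and 28 of the perigonadal intronic peaks. The element names are given for intronic and intergenic positions alone in these lists, so exons and promoters could not contribute members.

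LINE peaks lay far from promoters, and the younger ones farthest. The median distance was 46.8 kb for inguinal and 64.6 kb for perigonadal LINE peaks, beside 34.6 and 34.8 kb for intronic and intergenic peaks outside repeats. In older LINE elements the medians were 32.7 and 46.1 kb, so the inguinal one was not above that of peaks outside repeats. In young mouse and rodent L1 the medians were 80 and 118.5 kb. For LTR peaks they were 25.6 and 37.8 kb, and for SINE peaks 25.9 and 21.7 kb. More than 100 kb from a promoter lay 31.0% of inguinal and 41.9% of perigonadal LINE peaks, beside 22.1% and 23.2% of other intronic and intergenic peaks. The farthest was 1683685 bp from Brinp3 in an inguinal Lx6 copy.

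**Figure D5:**
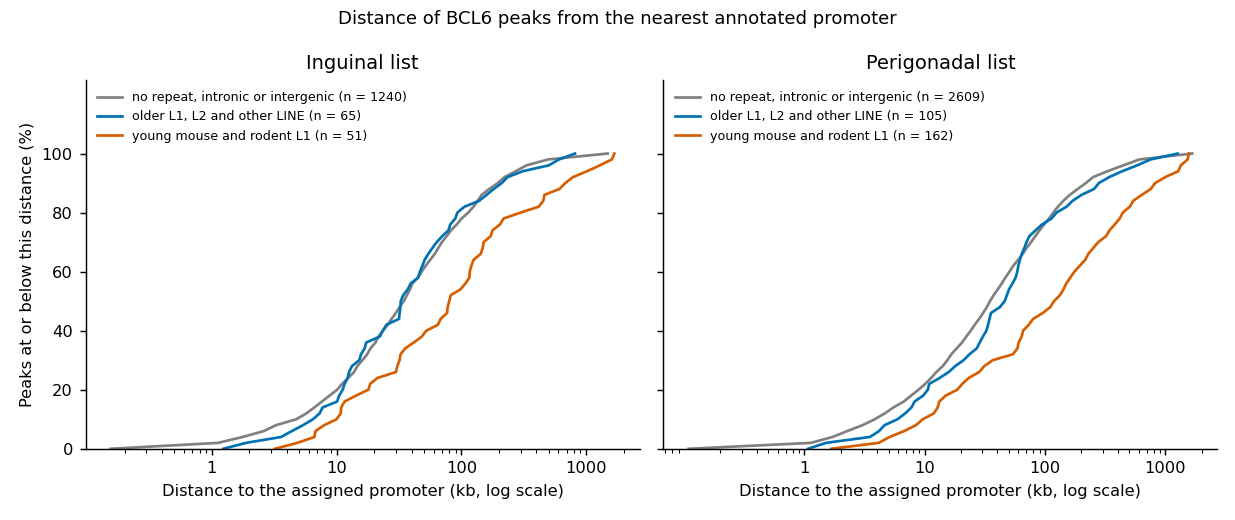
Percentage of peaks (vertical axis) at or below a given distance to the assigned promoter (horizontal, kb, log scale) in the inguinal (left) and perigonadal (right) list. The curve of older LINE elements runs close to that of intronic and intergenic peaks outside repeats, and the curve of young mouse and rodent L1 lies to the right of both, with medians of 80 and 118.5 kb.

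Within 50 kb of its promoter, 53 protein-coding genes had an inguinal LINE peak, which is 0.242% of 21900 genes, and 98 had a perigonadal one, 0.447%. The perigonadal count was 29 with the lists held to equal length, and above 12 tags the counts were 15 inguinal and 12 perigonadal genes, so they give no order of the depots. A LINE peak in both lists was found at 11 genes, at the same site each time. These were Atp5g1, Ptpn4, Rab7b, Adipor2, Ksr1, Tcf7l1, Cul4a, Fkbp9, Rln1, Usp46 and Phldb2. How many of all genes with a peak had one in both lists is not given here, so the count has no share to be set against. For most genes the LINE peak stood alone: 3 of the 53 and 14 of the 98 had another peak of the same list within 50 kb. The same share over all genes with a peak was not computed, so this is not shown to be particular to LINE peaks. In all, 1143 inguinal and 2469 perigonadal peaks lay within 50 kb of their assigned promoter, and 931 and 1946 protein-coding genes had a peak there. The assigned gene was not the host of the intron for 11 of 43 inguinal intronic peaks and 24 of the 102 perigonadal ones whose host could be matched. Angptl2 is an example, since its LINE peak lies in an intron of Ralgps1.

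The gene lists chosen for adipocyte functions, BCL6 biology, LINE silencing and other cell types of fat held 207 different genes, 205 of them in the table of protein-coding genes. Of these, 0 had an inguinal and 1 a perigonadal LINE peak within 50 kb, beside 0.242% and 0.447% of all protein-coding genes. At such shares a list of this size would hold about 1 gene or fewer, so the counts show nothing particular to the lists. A peak of any kind was found at 24 and 53 of them, and at 4.25% and 8.89% of all protein-coding genes. The lists were chosen with earlier results of these data known, so these counts are no test of enrichment. The list gene with a LINE peak was Insr, the insulin receptor gene, with a perigonadal peak of 7.93 (3.63 to 15.1), or 9 tags, in an Lx10 copy 9.28 kb upstream (chr8:3288800-3288984). This was the lowest of 4 perigonadal peaks at Insr, and the shared peak 34.6 kb upstream, with 13.5 and 15.9, lies outside repeats. Each of the other 11 lists, among them those for preadipocytes and fibroblasts, macrophages, lymphocytes and endothelium, counted 0 in both depots, which at 12 to 20 genes a list and these shares is no result about them.

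At greater distance, list members were the nearest gene for the Igfbp3 pair and for low peaks. Irf4, a lymphocyte transcription factor gene, was 53.7 kb from a perigonadal L1MEb peak of 9.70. Hdac9, a class IIa histone deacetylase gene, held a perigonadal L1_Mus4 peak of 7.93 in intron 3 of 27, 188.3 kb from its promoter. Tbl1xr1, a gene of the NCoR corepressor complex, was 463.6 kb from an inguinal Lx peak of 8.27.

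Some further genes with known roles in fat had low perigonadal LINE peaks, and were picked after their values were seen. Slc7a10, a serine transporter gene of adipocytes, had a peak of 8.82 in an L2a element in intron 1 of 10. Klf14, a regulator of adipose gene expression, was 33.1 kb from another L2a peak of 8.82. Hif1a, the hypoxia factor gene, held one of 8.82 in an L1MB2 element in intron 1 of 14. Vldlr, a lipoprotein receptor gene, had one of 8.82 in an Lx5 copy 10.5 kb upstream. Each rested on 10 tags, with an interval of 4.80 to 18.4 tags, and none was shared.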

How the data were processed

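BCL6 chromatin immunoprecipitation was sequenced from adipocyte nuclei of 2 fat depots. The submitters' processing notes name Bowtie 1.2, HOMER and mm10. The deposited lists are output of HOMER's annotatePeaks for mm10, per the file headers, and hold a score for each peak, a focus ratio given as a fraction, and the distance in bp to the nearest promoter. The peak file named in the inguinal header carries a false discovery rate of 0.001 in its name, the perigonadal one none. The sources used here do not give pooling, calling settings or the handling of reads with several matches.

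Scores were divided by the step of their list (0.752 and 0.882, met by 100% of scores within the rounding of the file) and read as tags. Overlap of 1 bp or more made a pair. Element groups followed the names: young mouse L1 (L1Md, L1_Mus), rodent L1 (Lx, L1_Mur, L1_Rod, L1VL), older mammalian L1 (other L1), L2 and other families. Older mammalian L1 was thus the remainder of L1. It took in MusHAL1, with 2 perigonadal peaks, and the age of its members was not checked one by one. Genes were those assigned by the authors, matched by Entrez number to a RefSeq table of GRCm38.p6 (1589 of 1593 inguinal and 3178 of 3180 perigonadal genes), and counted within 50 kb if protein-coding. Promoter sequences are RefSeq's, build GRCm38.p6. The code was tested on simulated peaks. Python 3.11.15, pandas 2.3.3 and scipy 1.17.1 were used.

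Named were the 10 tallest LINE peaks a list, the 12 tallest pairs, the tallest peak of each element group and up to 4 members of each of 12 gene lists; others complete a description or were picked after their values were seen. The members and lists were chosen with earlier results of these data known. Alternatives covered the height limit, chromosomes, overlap rule, list length and assignment distance.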

Additional observations from a re-analysis of the deposited data

How the results depend on the processing

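Of 37 alternatives computed, 11 could not differ, because no LINE annotation lay near a promoter and no inguinal LINE peak on the X chromosome. Of the other 26, 12 stayed within the interval of the share, or within 1.5 times of the count, and 14 did not. Restricting both lists to more than 12 tags gave LINE shares of 4.88% (inguinal) and 3.16% (perigonadal), 52.8% and 63.3% of LINE peaks had a partner of that height, the L1 family held 80% of perigonadal LINE peaks, and 15 and 12 protein-coding genes were assigned a LINE peak. With the perigonadal list held to the length of the inguinal one, the LINE share was 4.65%, the share with a partner 27.7% and the gene count 29. At the last score kept, 9.70, 525 of 546 peaks were drawn at random. Within 10 kb the gene counts were 14 and 31, and at any distance 95 and 212. Stricter overlap, centres within 500 bp and autosomes alone moved no value past its limit. The 6 alternatives on the share of LINE peaks with a motif match were not run, because no genome sequence was used here. No paired analysis was possible because each depot has 1 library. Median peaks of 10 to 11 tags limit what a missing partner can show.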

Other observations

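LINE peaks were spread over 19 chromosomes among inguinal and 20 among perigonadal peaks. On chromosome 12, 23 of 174 perigonadal peaks were in LINE elements, 13.2% (8.97 to 19.1%), and on chromosome 14, 17 of 146, 11.6% (7.40 to 17.9%). These were the highest shares of any chromosome in that list, picked after the values were seen, beside 6.75% over the whole list. Their intervals do not allow for that choice. The inguinal counts there were 3 of 73 and 1 of 72. On the X chromosome 0 of 14 inguinal and 1 of 30 perigonadal peaks were LINE peaks, and the count of 0 allows a share of up to 21.4% by a limit of 3 counts.

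Some genes in wide gene-poor regions were the nearest gene for several low perigonadal LINE peaks. Efna5, an ephrin ligand gene, was assigned 3, in Lx2, Lx2B2 and L1_Mus3 copies with scores of 8.82, 8.82 and 7.93, all beyond 500 kb. Xkr4 was assigned peaks of 9.70 in Lx3A and Lx4B copies, at 545.1 and 538.4 kb. Cdh11, a cadherin gene, had 11.5 in an Lx copy at 679.6 kb and 8.82 in an L1_Mus3 copy at 1558 kb. MicroRNA genes were the nearest annotated gene for 6 inguinal and 8 perigonadal LINE peaks.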
